A study of Mus musculus with 13 samples.

Results

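Snap25 and Syt1 encode 2 proteins of the neuronal machinery that fuses synaptic vesicles with the plasma membrane, and their Argonaute (AGO) footprints were followed in mouse cortex shortly after a stroke. The members were every peak that the deposited AGO-mRNA peak table assigns to either gene name. They came to 53 of 18284 peaks with a position, 16 for Snap25 and 37 for Syt1. The genes were chosen by their place in a known pathway with ipsilateral values of these data already known, so their ipsilateral levels are given as a description and carry no test. AGO CLIP crosslinks RNA to AGO, the protein that holds microRNAs (miRNAs), with ultraviolet light, purifies the complexes and sequences the bound fragments, each counted as a tag. A peak is a short stretch of the genome, 80 bases in the median peak here, where such tags gather.

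All animals were wild-type C57BL6 mice aged 7 to 8 weeks, and cortex was the tissue in every library. Sham animals (4 libraries, replicates 1, 2, 3 and 5) were anaesthetised and had their arteries exposed without a filament. The other animals had middle cerebral artery occlusion (MCAO) on the right side for 35 min and 3 h of recovery. Their cortex was taken from the uninjured contralateral hemisphere (4 libraries, replicates 1, 2, 4 and 5) or from the occluded ipsilateral hemisphere (5 libraries, replicates 1 to 5). Each replicate number stands for its own day of surgery. The labels state neither the number of animals behind a library nor the hemisphere used in sham animals.

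SNAP-25 is a SNARE protein of the plasma membrane. With partner SNAREs, among them synaptobrevin (VAMP2) on the vesicle, it zips into the bundle that drives fusion. Synaptotagmin-1, the product of Syt1, sits on the vesicle, binds calcium that enters with the action potential and triggers fast, synchronous release. Both genes are widely used as markers of neurons. A miRNA guides AGO to an mRNA by pairing of its seed, the bases next to its 5′ end, usually with the 3′ untranslated region (3'UTR), and this commonly lowers the protein made. A tag count reflects both how much of an mRNA is present and how much of it AGO holds, and these tables do not separate the 2. In bulk cortex, fewer cells of a type and less RNA per cell cannot be told apart either.

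Depth differed between libraries, with 3780 to 71027 peak tags and 2871 to 29039 tags in exonic peaks (coding sequence, UTR or unclassified exon). The 3 libraries of replicate 1 stood apart, with 55.9% to 67.1% of tags outside exons against 22.8% to 50.7% in the other 10 libraries. Levels are therefore given per 10000 exonic tags of a library. Mean exonic levels of Snap25 and Syt1 are also given without the replicate 1 libraries. Counts of peaks are also given without ipsilateral replicate 1, with sham replicate 1 kept. Of the neuron markers listed, 11 of 15 had exonic tags, and Rbfox3, Tubb3, Nefm and Nefh had none. Of the microglia and myeloid markers 1 of 10 had tags, of the vascular markers 2 of 9 and of the blood markers 1 of 5.

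Some sequences under member peaks are shown first, because a seed match under a peak names the miRNAs that could pair there. All but 1 come from the 5 most covered exonic peaks of each gene. Syt1 peak 28 is not among those and is shown because it holds the same miR-153-3p match as Snap25 peak 15. Other matches under the most covered peaks, among them those under Syt1 peaks 11, 24 and 27, are left out. Snap25 lies on the forward strand of chr2:136713453-136782428 and Syt1 on the reverse strand of chr10:108497650-109010982 (mm10, GENCODE M21). The Snap25 transcript read here (Snap25-201) has 8 exons and a 3'UTR of 1285 bases, and that of Syt1 (Syt1-202) has 12 exons and a 3'UTR of 2890 bases. Each window is the transcript strand, 5′ to 3′, with the match to the named miRNA in capitals and 10 bases on each side.
Snap25 peak 6, miR-708-5p, chr2:136781180-136781206: tggacaagagAGCTCCTtcatgcttct
Snap25 peak 6, miR-19b-3p, chr2:136781220-136781246: ctagtaggtcTTGCACAtacacacaca
Snap25 peak 13, miR-223-5p, chr2:136781960-136781986: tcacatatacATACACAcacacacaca
Snap25 peak 15, miR-153-3p, chr2:136782209-136782235: taatctagagCTATGCAcaccaaattg
Syt1 peak 28, miR-153-3p, chr10:108498896-108498922: aactgaacagCTATGCAtaggacagaa
Syt1 peak 12, miR-16-5p, chr10:108642326-108642352: agtcgtgaccTGCTGCTtctgtgtctg

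The mature miRNAs for these matches are printed from RefSeq (GRCm38.p6) with the seed, bases 2 to 8, in capitals.
miR-708-5p: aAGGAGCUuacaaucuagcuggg
miR-19b-3p: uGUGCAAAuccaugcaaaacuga
miR-223-5p: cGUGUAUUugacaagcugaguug
miR-153-3p: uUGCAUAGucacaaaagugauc
miR-16-5p: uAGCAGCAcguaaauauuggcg

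No seed is shared among these 5 miRNAs. The miR-153-3p match, CTATGCA, occurs under a peak of each gene, 1076 bases after the stop codon of Snap25 and 1628 bases after that of Syt1. The same match, or TATGCAA, was present in 1.28% of 11197 exonic peaks searched. The match to miR-708-5p (AGCTCCT or GCTCCTA) was present in 0.598% of them and the match to miR-16-5p (TGCTGCT or GCTGCTA) in 1.68%. A match is a description of letters and not a measured pairing.

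Snap25 made up a larger share of exonic AGO tags in most ipsilateral libraries than in any sham library. Sham replicates 1, 2, 3 and 5 had 21.7, 34.4, 23.8 and 24.7 tags per 10000 exonic tags. The contralateral replicates 1, 2, 4 and 5 had 21.01, 46.9, 23.6 and 30.8. The ipsilateral replicates 1 to 5 had 22.2, 75.6, 99.5, 58.2 and 38.3. Ipsilateral replicates 2 to 5 were all above the highest sham value, whereas ipsilateral replicate 1 lay among the sham libraries, and contralateral replicate 2 was higher than ipsilateral replicate 5. The means were 26.1 ± 5.66 (SD, n = 4) in sham, 30.6 ± 11.7 (SD, n = 4) in contralateral and 58.8 ± 30.4 (SD, n = 5) in ipsilateral cortex, or 67.9 ± 26.0 (SD, n = 4) without ipsilateral replicate 1. Without their own replicate 1 the sham and contralateral means were 27.6 and 33.8 (n = 3 each). The counts behind these shares were small in places, 11 tags in ipsilateral replicate 5 and 14 in contralateral replicate 4. The exact Clopper-Pearson 95% interval of the share was 19.1 to 68.5 per 10000 in ipsilateral replicate 5 and 87.5 to 113 in ipsilateral replicate 3, which covers counting error only, as tags may not be independent molecules.

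**Figure D1:**
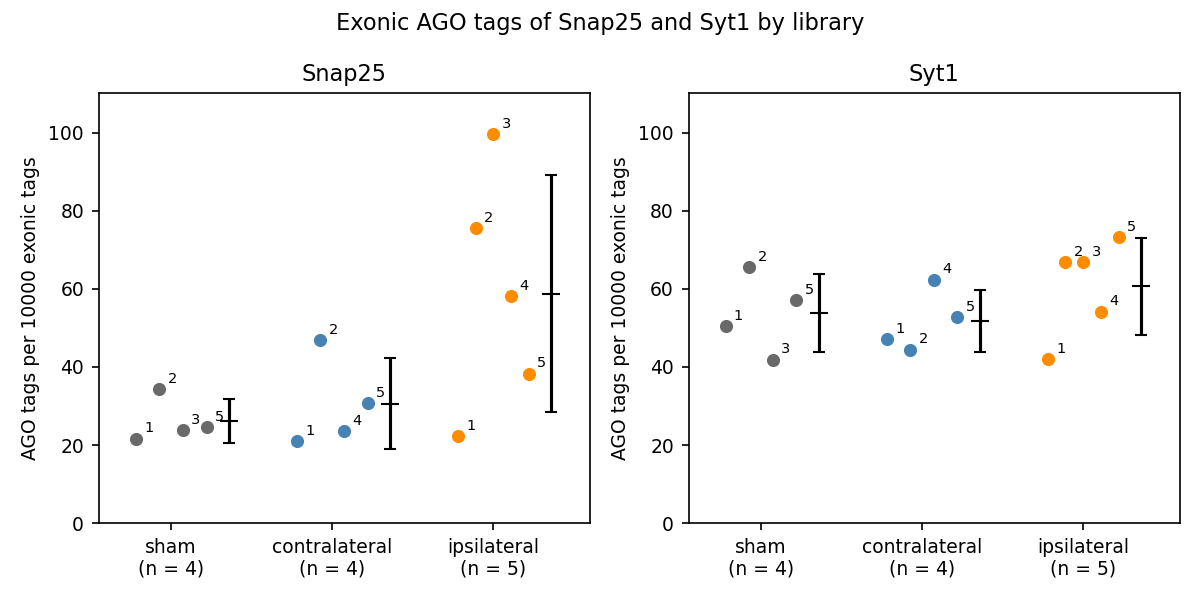
Exonic AGO tags of Snap25 (left) and Syt1 (right) per 10000 exonic tags of each library. Points are libraries labelled by replicate number, and bars to the right of each group are the mean with its SD. Ipsilateral replicates 2 to 5 lie above every sham library for Snap25, while the groups overlap for Syt1.

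Within a day of surgery the ratio of ipsilateral to sham Snap25 was 1.03 in replicate 1, 2.20 in replicate 2, 4.19 in replicate 3 and 1.55 in replicate 5. Against the contralateral hemisphere it was 1.06, 1.61, 2.47 and 1.25 in replicates 1, 2, 4 and 5. The ratio was thus above 1 on every day with both libraries, and close to 1 in replicate 1.

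Syt1 had overlapping shares of AGO tags in the 3 groups. Sham libraries had 50.5, 65.5, 41.9 and 57.2 tags per 10000 exonic tags, in the replicate order above. The contralateral libraries had 47.2, 44.4, 62.3 and 52.7, and the ipsilateral libraries 42.1, 66.8, 66.9, 54.2 and 73.1. The means were 53.8 ± 10.0 (SD, n = 4), 51.7 ± 7.91 (SD, n = 4) and 60.6 ± 12.5 (SD, n = 5), or 65.3 ± 7.96 (SD, n = 4) without ipsilateral replicate 1. Without their own replicate 1 the sham and contralateral means were 54.9 and 53.2 (n = 3 each). The tags of Snap25 came to 0.429 to 0.568 of those of Syt1 in sham libraries, 0.378 to 1.06 in contralateral libraries and 0.524 to 1.49 in ipsilateral libraries.

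All genes were then compared in 1 edgeR quasi-likelihood fit of exonic tags summed per gene, in which 444 genes passed the filter on low counts. For Snap25 the log2 fold change of ipsilateral over sham cortex was 1.15 (SE 0.34), the rank 9 from the top of 444 genes, and that of ipsilateral over contralateral cortex 0.95 (SE 0.34). For Syt1 these were 0.11 (SE 0.19) and 0.22 (SE 0.19), beside a median over all genes of -0.02 and 0.02. Over all genes, 0.225% of 444 were called at an adjusted p under 0.05 in ipsilateral against sham cortex (1 gene, Hspa1b) and 0% in ipsilateral against contralateral cortex (54 genes at an unadjusted p under 0.05, and 4 called by DESeq2). With the day of surgery as a block these shares were 0.225% and 0.225%, and 0% for contralateral against sham. Hspa1b, which encodes an inducible heat shock protein 70, had 0 to 1 tags in each sham library and 73, 32, 16 and 6 in ipsilateral replicates 2 to 5. It had 0 in ipsilateral replicate 1, which allows up to 1.42 per 10000 exonic tags, and this is the library in which Snap25 was also at its sham level.

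The comparison of contralateral with sham cortex was the only comparison tested for the members. It is not known to have played a part in choosing the genes. However, it shares its sham and contralateral libraries with comparisons that may have, so it is not fully independent of that choice. Neither member differed beyond the spread of the libraries. The edgeR log2 fold change was 0.20 (SE 0.35) for Snap25 and -0.11 (SE 0.20) for Syt1, with a Benjamini-Hochberg adjusted p of 0.993 for each. The share of exonic tags differed by 4.44 per 10000 for Snap25 (two-sided exact permutation p = 0.686, n = 4 and 4) and by -2.11 for Syt1 (exact permutation p = 0.743, n = 4 and 4), contralateral minus sham. Adjusted over the 2 genes both p-values were 0.743, and the smallest p that 4 against 4 libraries can give in an exact permutation test is 0.0286. Of 444 genes 0% were called in this comparison by edgeR, with 8 genes at an unadjusted p under 0.05 and 0 called by DESeq2. Such a p does not show that the hemispheres were alike.

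Most Snap25 tags lay in the 3'UTR in every group. The 3'UTR peaks of Snap25 had 18.2, 23.8, 21.5 and 18.4 tags per 10000 exonic tags in sham libraries and 16.1, 68.0, 89.7, 46.2 and 38.3 in ipsilateral replicates 1 to 5. Contralateral libraries had 15.2, 40.0, 23.6 and 29.7. Its coding peaks had 2.26 to 10.6 in sham, 0 to 6.88 in contralateral and 0 to 12.04 in ipsilateral libraries, so those groups overlapped. The counts of 0, in contralateral replicate 4 and ipsilateral replicate 5, allow up to 5.05 and 10.4 per 10000. The 3'UTR held 69.2% to 90.5% of the exonic Snap25 tags in sham libraries, 72.1% to 100% in contralateral and 72.3% to 100% in ipsilateral libraries, so these shares overlapped.

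The regions of Syt1 are given separately, with no test of a difference between them. Its 3'UTR peaks had 17.9, 29.8, 20.4 and 31.5 tags per 10000 in sham libraries and 18.4, 43.8, 43.2, 32.1 and 48.8 in ipsilateral replicates 1 to 5. Ipsilateral replicates 2 to 5 again lay above the highest sham library, replicate 4 by little. Contralateral replicates 1, 2, 4 and 5 had 19.3, 19.4, 33.7 and 27.5. Contralateral replicate 4 thus also lay above every sham library, and above ipsilateral replicate 4. The coding peaks of Syt1 had 15.8 to 28.5 in sham, 21.9 to 25.3 in contralateral and 14.0 to 24.4 in ipsilateral libraries. The 3'UTR held 35.3% to 55.0% of the exonic Syt1 tags in sham libraries, 40.9% to 54.1% in contralateral libraries and 59.3% to 66.7% in ipsilateral replicates 2 to 5, against 43.8% in ipsilateral replicate 1. Over all genes the 3'UTR share of exonic tags was also higher in ipsilateral libraries, 69.2% to 73.9%, than in most sham libraries, 61.4% to 71.2%, and the part of this general difference in that of Syt1 was not tested. In a fit of 3'UTR peaks alone (307 genes) the log2 fold change of ipsilateral over sham cortex was 1.21 (SE 0.37) for Snap25 and 0.41 (SE 0.27) for Syt1. In a fit of coding peaks alone (118 genes) it was 0.79 (SE 0.47) and 0.07 (SE 0.25).

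**Figure D2:**
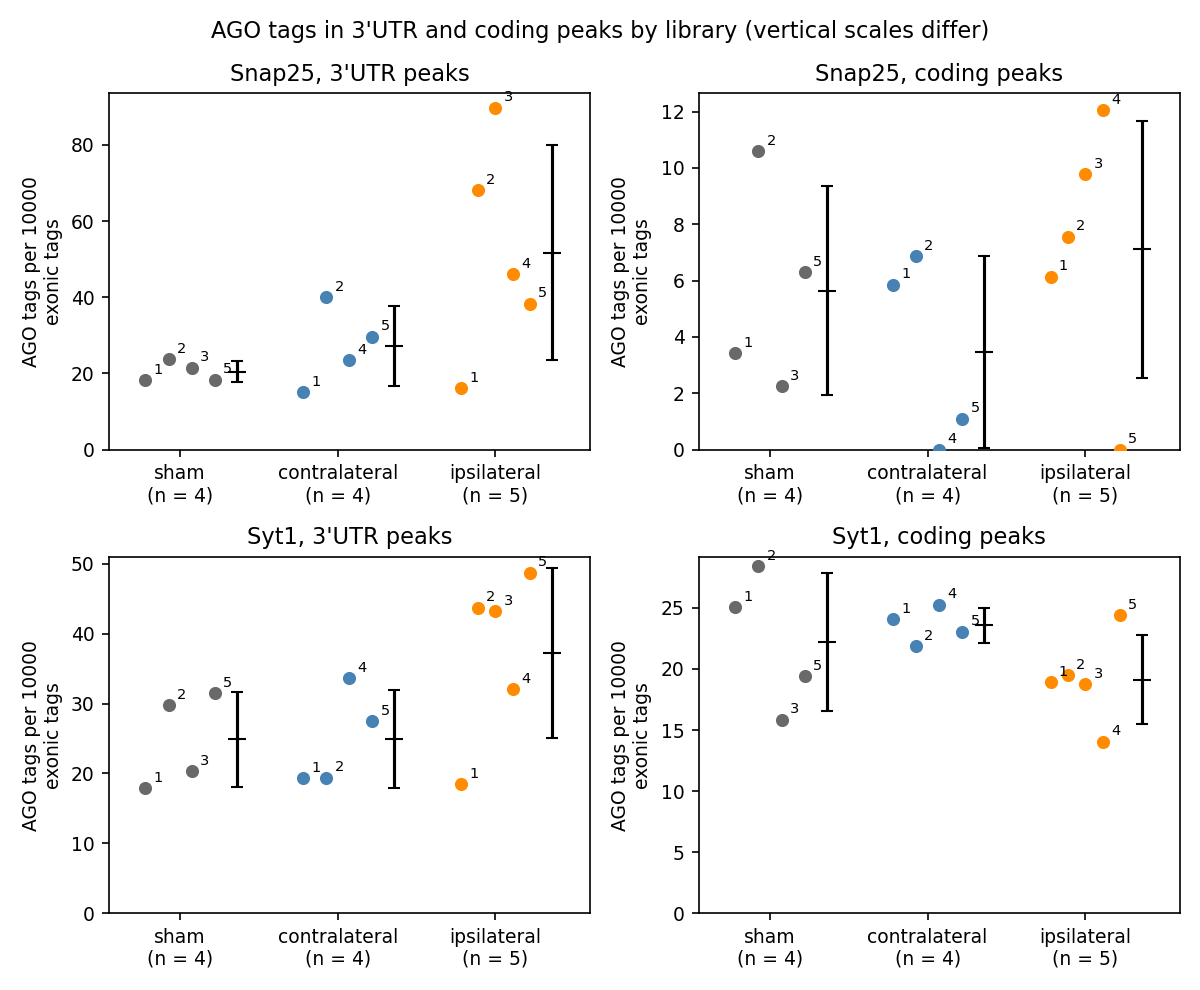
AGO tags of Snap25 (upper row) and Syt1 (lower row) in 3'UTR peaks (left) and coding peaks (right), per 10000 exonic tags. Points are libraries labelled by replicate number, and bars are the mean with its SD. In the 3'UTR panels ipsilateral replicates 2 to 5 lie above the sham libraries and ipsilateral replicate 1 does not. Some contralateral libraries also lie above the sham libraries there.

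The 16 peaks of Snap25 were all exonic and held 876 tags. Peak 13, centred 839 bases after the stop codon, was the most covered with 239 tags, 27.3% of the gene's total. It had 1.90, 7.94, 6.79 and 6.29 tags per 10000 exonic tags in sham libraries, 4.13, 19.4, 6.74 and 6.59 in contralateral libraries and 4.73, 18.7, 33.0, 18.1 and 13.9 in ipsilateral replicates 1 to 5. Ipsilateral replicates 2 to 5 exceeded all sham libraries at this peak, and contralateral replicate 2 was as high as ipsilateral replicate 2. The value of ipsilateral replicate 5 rested on 4 tags. The transcript under peak 13 holds an unbroken alternation of A and C over 21 bases, and peak 6, with 99 tags, one of 32 bases. A run of at least 10 such bases was present in 0.607% of the exonic peaks searched and in 0.896% of 7253 3'UTR peaks. The miR-223-5p match shown above runs into it, so that match and the repeat share letters.

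The higher ipsilateral level was not limited to the peaks with the repeat. The other 9 3'UTR peaks of Snap25 together had 9.93 to 12.5 tags per 10000 in sham, 9.64 to 23.1 in contralateral and 7.56 to 42.8 in ipsilateral libraries, the lowest in replicate 1. All 11 of its 3'UTR peaks had a higher pooled ipsilateral than pooled sham level, as did 4 of its 5 other peaks, and the counts were the same without ipsilateral replicate 1. Over all genes this held for 54.8% of 7835 3'UTR peaks and 39.3% of 4454 other exonic peaks, and for 54.9% and 41.3% without that library. The exception was peak 3, in coding sequence, with 2.16 in sham and 1.02 in ipsilateral cortex. Peak 16, at the 3′ end of the transcript, had 1.32 to 3.40 in sham libraries and 0.95, 10.7, 11.4, 8.03 and 3.48 in ipsilateral replicates 1 to 5. There the value of ipsilateral replicate 5 rested on 1 tag. Pooling weighs libraries by their tags, and ipsilateral replicates 2 and 3 held 190 and 244 of the 521 ipsilateral Snap25 tags. At peak 6, ipsilateral replicates 1 to 5 had 3.78, 6.76, 13.9, 0 and 0 per 10000, against 2.10 to 5.96 in sham libraries. Peaks of the same gene come from the same libraries and are not replicates, so their count largely follows the gene total. In addition, 1 pair of neighbouring Snap25 peaks overlapped, so single peaks are not all separate measurements.

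Syt1 tags were spread more evenly, over 32 exonic peaks with 1140 tags and 5 intronic peaks. Its most covered peak was peak 12, in coding sequence, with 123 tags or 10.8% of its exonic total. It had 11.4, 3.97, 1.13 and 4.72 tags per 10000 in sham, 5.17, 8.13, 11.8 and 12.1 in contralateral and 6.62, 1.99, 3.26, 4.01 and 6.97 in ipsilateral libraries, and the groups overlapped. Peak 27, in the 3'UTR 1279 bases after the stop codon, had 98 tags, with 1.13 to 3.80 in sham, 3.13 to 6.74 in contralateral and 4.25 to 13.9 in ipsilateral libraries. Every ipsilateral library, replicate 1 included, was above every sham library at peak 27. The counts were small, with 10, 4, 1 and 7 tags in sham libraries and 9, 15, 17, 4 and 4 in ipsilateral libraries. The peak was described because it is among the 5 most covered of Syt1. Of all 418 exonic peaks with at least 50 tags, 0.957% (4 peaks, peak 27 among them) had every ipsilateral library above every sham library, and in 5 every ipsilateral library was below every sham library. The members had 12 peaks with that many tags, and no other was separated upward. Of the 15 3'UTR peaks of Syt1, 12 had a higher pooled level in ipsilateral than in sham cortex, against 7 of its 17 other exonic peaks. Without ipsilateral replicate 1 the counts were 11 and 5, beside the shares over all genes given above for Snap25. Of its neighbouring exonic peaks 8 pairs overlapped.

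**Figure D3:**
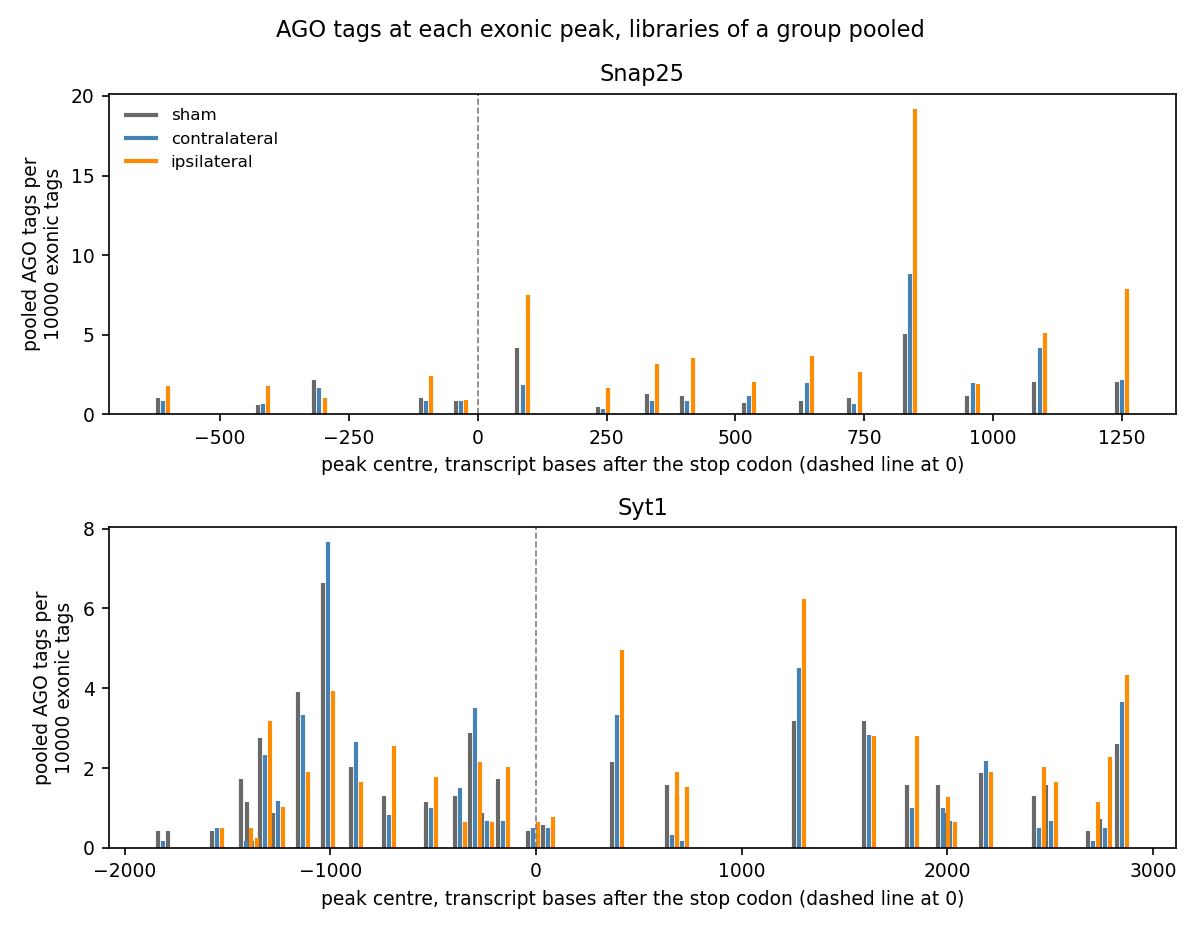
AGO tags at each exonic peak of Snap25 (upper) and Syt1 (lower), pooled over the libraries of a group and per 10000 exonic tags, against the distance of the peak centre from the stop codon in transcript bases. Bars of the 3 groups stand side by side at each peak, and the vertical scales differ. The tallest bar of Snap25 is peak 13 in ipsilateral cortex (19.2) and that of Syt1 is peak 12 in contralateral cortex (7.66).

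Seed matches of 7 or 8 bases, for 130 seeds of listed miRNA families, numbered 24 under exonic peaks of Snap25 and 39 under those of Syt1. Of 131 listed families 6, miR-124 among them, were not searched for lack of a sequence, and in each of the others only the arm with more tags was searched. In the 3'UTR of Snap25, 18 of 25 matches lay under peaks, which cover 67.3% of its bases. In that of Syt1, 24 of 60 did, with 38.0% of bases under peaks. The share of matches under peaks was therefore close to the share of bases under them in both genes. Syt1 also has a match to miR-137-3p, a brain miRNA, 216 bases after its stop codon that lay under no peak. In Snap25 a match to the same miRNA lay in coding sequence under peak 3.

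Among the miRNAs searched whose matches lay under the 5 most covered peaks of either gene, miR-16-5p (1957 tags, 11.4 times the median miRNA of the table) and miR-708-5p (1619 tags, 9.41 times) were the most abundant, followed by miR-153-3p (897 tags, 5.22 times). The others, such as miR-19b-3p with 405 tags and miR-223-5p with 268, were closer to the table's median of 172 tags. The miRNA table played no part in choosing the genes. miR-708-5p had 27.7 to 68.0 tags per 10000 miRNA tags in sham, 21.2 to 40.4 in contralateral and 24.2 to 312 in ipsilateral libraries, whose median was 30.5. miR-16-5p had 15.3 to 90.0, 21.6 to 64.0 and 23.4 to 177 in the same order. miR-153-3p had 16.5 to 25.1, 17.8 to 30.6 and 12.9 to 41.5. The groups overlapped for all 3. None of them passed the edgeR test, with adjusted p-values of 0.999 in all 3 comparisons, and of 1427 miRNAs tested 0% were called in contralateral against sham, 0% in ipsilateral against sham and 0% in ipsilateral against contralateral cortex. At an unadjusted p under 0.05 there were 43, 35 and 52 miRNAs in these comparisons.

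The other listed genes of the release machinery were read from the same fit. Of 17 further genes of the fusion core, 3 had enough tags to be tested and none passed in ipsilateral against sham cortex, with a median log2 fold change of 0.19 beside -0.02 over all genes. They were Nsf (0.15, SE 0.34), the ATPase that takes SNARE bundles apart, Vamp2 (0.19, SE 0.33), the vesicle SNARE, and Napb (0.46, SE 0.52), an adaptor of Nsf.

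Among 24 further genes of calcium sensing and priming, 6 were tested and none passed, 4 of them above 0 with a median of 0.18. The complexins, which clamp and then assist the SNARE bundle, had log2 fold changes of 0.53 (Cplx1, SE 0.41) and 0.27 (Cplx2, SE 0.23). The related calcium sensor Syt7 had -0.13 (SE 0.28) and Syt11 0.21 (SE 0.32). Unc13a, which encodes the priming factor Munc13-1, had -0.48 (SE 0.42).

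Among 33 active zone and vesicle genes 9 were tested and none passed, 8 of them above 0 with a median of 0.26. The values ran from -0.20 (SE 0.23) for Bsn, a large scaffold of the active zone, to 0.44 (SE 0.38) for Slc17a7, the vesicular glutamate transporter. Of all 444 genes 49.1% were above 0 in this comparison. No gene of the 3 lists passed in either of the other comparisons.

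**Figure D4:**
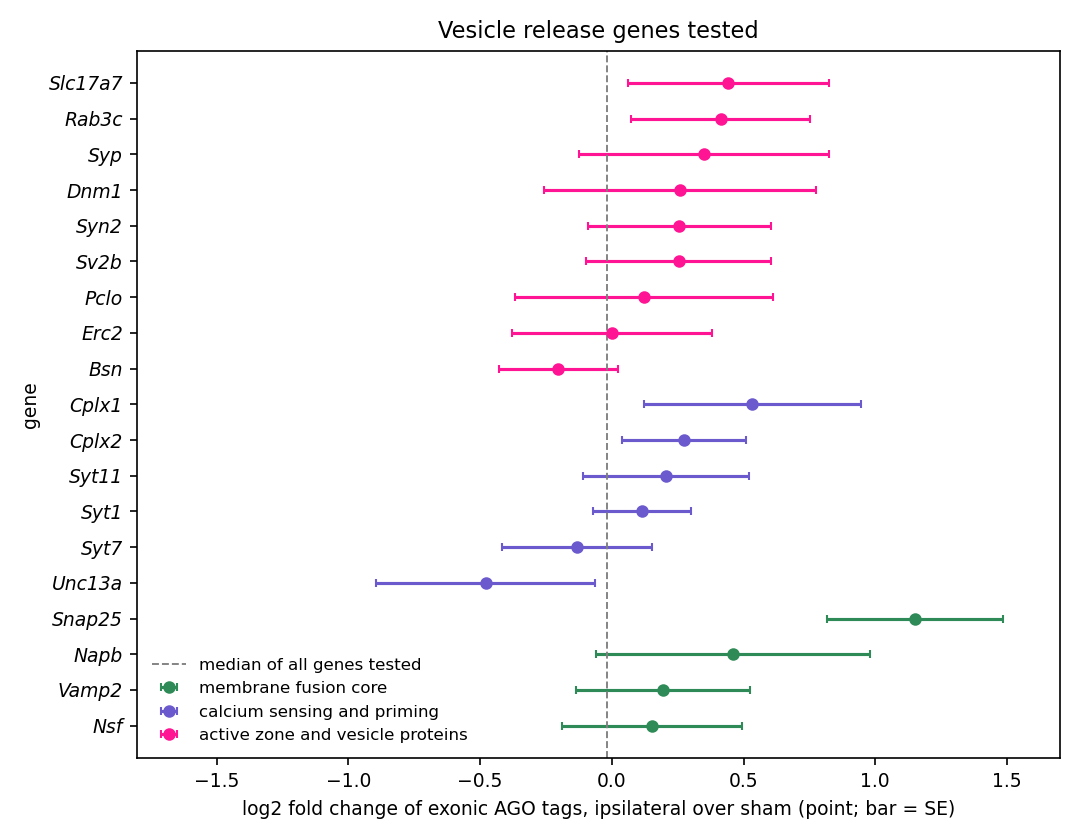
Log2 fold change of exonic AGO tags in ipsilateral over sham cortex for 19 of the 20 tested genes of 3 vesicle release lists, with bars of 1 SE from the edgeR fit over all 13 libraries. The dashed line is the median of all 444 genes tested. Snap25 lies at 1.15 and the other genes between -0.48 and 0.53.

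The 5 other neuron markers tested had log2 fold changes on both sides of 0. Summed, all other neuron markers had 203 to 241 tags per 10000 exonic tags in sham, 200 to 261 in contralateral and 101 to 190 in ipsilateral libraries, so every ipsilateral library was below every sham library. Map2 and Camk2a made up 88.2% of this sum in sham tags, and the other 7 markers with tags together had 20.98 to 37.1 in sham and 17.4 to 36.1 in ipsilateral libraries, which overlapped. Of the 5 tested, 2 were above 0 in ipsilateral over sham cortex and none passed. The log2 fold change was -0.89 (SE 0.24) for Camk2a, a kinase of excitatory synapses, -0.44 (SE 0.22) for Map2, a dendritic microtubule protein, 0.52 (SE 0.45) for Camk2b, 0.32 (SE 0.59) for Nefl and -0.33 (SE 0.38) for Nrgn. Stmn2, Gap43, Thy1 and Eno2 had too few tags to be tested. Stmn2 and Gap43 had means of 1.28 ± 1.42 and 0.737 ± 0.919 (SD, n = 4) in sham libraries. They had 2.86 ± 0.511 and 2.70 ± 1.60 (SD, n = 4) in contralateral and 3.11 ± 0.927 and 2.48 ± 1.79 (SD, n = 5) in ipsilateral libraries. Thy1 and Eno2 had 4.06 ± 2.70 and 1.96 ± 0.682 (SD, n = 4) in sham libraries. They had 1.33 ± 1.06 and 1.64 ± 1.36 (SD, n = 4) in contralateral and 3.55 ± 1.90 and 1.74 ± 2.50 (SD, n = 5) in ipsilateral libraries. Astrocyte markers (8 of 10 with tags) had 253 to 321 in sham and 183 to 311 in ipsilateral libraries, and oligodendrocyte lineage markers (5 of 10 with tags) 40.7 to 56.9 and 13.9 to 44.2. Their part in the values of Snap25 and Syt1 was not tested.

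Among the 443 other genes tested, those whose level followed Snap25 most closely over the 13 libraries were Prkcb (Spearman's rho 0.868), Ppp3r1 (0.852), Cplx1 (0.841), Dynll2 (0.835) and Enc1 (0.786). Prkcb encodes a protein kinase C and Ppp3r1 the regulatory subunit of calcineurin. For Syt1 they were Got1 (0.896), Ttll7 (0.841), Rasgrp1 (0.813), Rtn3 (0.813) and Hsph1 (0.786). Over the 10 libraries outside replicate 1, rho was 0.806, 0.818, 0.770, 0.879 and 0.685 for the genes named for Snap25, in the order given. For those of Syt1 it was 0.903, 0.903, 0.648, 0.673 and 0.697, so the order depended in part on replicate 1. Between Snap25 and Syt1 rho was 0.582, and 0.430 over the same 10 libraries. These values describe libraries that share depth and composition, and the closest 5 were picked from many genes.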

How the data were processed

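AGO CLIP fragments were cloned with bromodeoxyuridine capture, per the labels' protocols, and the submitters' processing notes name mm10 and, with no version, Novoalign. How peaks were called and whether duplicates were removed is not given in the sources used here. The authors deposited whole-number counts of tags per peak and per miRNA, not normalized. Of 18285 peaks 1 without a position was left out. Members and gene lists were chosen with earlier results of these data known.

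Tags of 12289 exonic peaks were summed per gene (3417 genes). The edgeR 4.0.16 quasi-likelihood test used TMM, filterByExpr, all 13 libraries in 1 fit and Benjamini-Hochberg adjustment at 0.05. It kept 444 genes with 64.1% of tags and 1427 of 1705 miRNAs. DESeq2 1.42.0 was an alternative. On simulated counts for 3417 genes edgeR recovered 44, 22 and 32 of 100 genes changed 2-fold in contralateral against sham, ipsilateral against sham and ipsilateral against contralateral cortex, and 80, 88 and 82 of 100 changed 4-fold. The 200 changed genes were drawn from those passing the low count filter, and all genes shared 1 estimate of the spread. Far more genes were changed than were called in the data, so recovery where few genes change was not measured. Named are the members, the genes with the most tags in each list, the 5 genes most alike, and miRNAs with matches under the 5 most covered peaks; some listed genes are counted but not reported by name here. Seed matches covered miRNA bases 2 to 8, or bases 2 to 7 with an A next to them, in GENCODE M21 transcripts (GRCm38, the mm10 assembly). Peak starts were read as counted from 0. The strand of tags was not read.

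Replicate numbers pair libraries by day of surgery, per the labels. Deviations from group means correlated at 0.00 to 0.54 (median 0.24) in 11 pairs of the same number and at -0.43 to 0.25 (median -0.07) in 45 others. After the data were seen, 16 combinations of 4 fit settings were compared, because the calls of the fit planned here differed from those of an earlier analysis of these tables. The planned fit was kept, and it is one of the 16. The p-values of the main fit and of the permutation test set a difference between groups against the spread between these libraries. Neither of them used the pairing by day.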

Additional observations from a re-analysis of the deposited data

Results flagged for a closer look

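In 33 groups of 4 or 5 libraries tested for a library far from the rest, 2 stood out, both in ipsilateral replicate 5. Chance alone flags about 1 in 20 groups. miR-708-5p, whose seed match lies under Snap25 peak 6, had 312 tags per 10000 miRNA tags there against 24.2 to 40.4 in the other 4 ipsilateral libraries. miR-16-5p, whose seed match lies under Syt1 peak 12, had 177 there against 23.4 to 43.7. This library had the fewest miRNA tags of all, 3851. Its Snap25 and Syt1 shares, 38.3 and 73.1 tags per 10000 exonic tags, did not stand out in the same test.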

How the results depend on the processing

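Neither gene passed in contralateral against sham cortex under any of 39 other settings of the edgeR or DESeq2 fit. The sign was not stable. Without contralateral replicate 2 the log2 fold change was -0.046 for Snap25 and 0.0125 for Syt1, and without sham replicate 2 it was 0.0134 for Syt1. Leaving out 1 library at a time gave -0.046 to 0.38 for Snap25 and -0.19 to 0.0134 for Syt1. For the share of exonic tags the difference ran from -1.01 to 7.63 (Snap25) and from -6.08 to 1.80 (Syt1) in the same way, and with all peak tags as the denominator it was 3.10 for Syt1. All these exact permutation p-values were at least 0.343.

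In ipsilateral over sham cortex the log2 fold change of Snap25 was 0.89 to 1.37 over 39 settings and that of Syt1 0.00 to 0.41, the highest (0.41) from 3'UTR peaks alone. With the replicate block, Snap25 had 1.02 (SE 0.26) and Syt1 0.10 (SE 0.21), with no test read from either.

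The number of genes called depended on the setting. In ipsilateral against sham cortex it was 1, and 2 with DESeq2, with no filter or without replicate 1, 0 with all peaks or with overlapping peaks reduced, and 0 to 10 leaving out 1 library, the 10 without ipsilateral replicate 1 and the 0 without any 1 of sham replicates 1, 2, 3 and 5, contralateral replicates 4 and 5 or ipsilateral replicates 2 to 5. Against contralateral cortex it was 0, and 4 with DESeq2, 2 with no filter, 1 with the replicate block, 5 without replicate 1 and 0 to 10 leaving out 1 library. Settings added after seeing the data were 3'UTR peaks alone, overlapping peaks reduced to 1, a robust estimate of the spread without (1 and 3 genes) and with the block (6 and 5 genes), and the 16 combinations of 4 fit settings, which called 1 to 3 and 0 to 3 genes. Hspa1b was called in 12 of the 16 and Camk2a in 8 in ipsilateral against sham cortex. No miRNA was called under any setting run. With matches of 6 bases 123 seed matches lay under member peaks in place of 63. Depth limits single peaks most, the median exonic peak of Snap25 holding 34 tags.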

Other observations

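The 5'UTR peaks of Syt1 were noticed after their values were seen. They had 7.60, 7.28, 5.66 and 6.29 tags per 10000 exonic tags in sham replicates 1, 2, 3 and 5, from 48 tags in all. The contralateral replicates 1, 2, 4 and 5 had 3.79, 3.13, 3.37 and 2.20, from 20 tags, with only 2 tags each in replicates 4 and 5. Ipsilateral libraries spanned 0 to 8.03. Of 7 genes with at least 50 tags in 5'UTR peaks, Syt1 was the only 1 with every contralateral library below every sham library, and 0 had every contralateral library above. Peaks 6 and 7, which overlap each other, held 12 and 8 of the sham tags and 1 and 1 of the contralateral tags. At peak 8, the most covered of the 5'UTR peaks, sham libraries had 0 to 3.67 and contralateral libraries 0 to 3.10 per 10000, which overlapped. No test was made of a pattern picked in this way.

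The 5 intronic peaks of Syt1 held 17 tags in sham, 8 in contralateral and 2 in ipsilateral libraries, which differ in depth. Per 10000 exonic tags this was 1.90 to 4.53 in sham, 0.626 to 1.72 in contralateral and 0 to 3.48 in ipsilateral libraries. The ipsilateral range thus overlapped that of sham, and its highest value, in replicate 5, rested on 1 tag. The counts of 0 in ipsilateral replicates 1, 2 and 4 allow up to 1.42, 1.19 and 6.02 per 10000. No test was made of these counts.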
